A study of Mus musculus with 24 samples.

Results

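The regions described here were promoter peaks of the histone demethylase LSD1 that were listed in a single chromatin immunoprecipitation sequencing (ChIP-seq) sample, LSD1 in 3T3-L1 cells labelled LSD1 overexpression at day 7 of fat cell differentiation. A peak was a member when it reached within 1 kb of the start of a curated RefSeq transcript (mm10) and shared no base with the peak list of LSD1 in control cells at day 0, in control cells at day 7, or in LSD1 overexpression cells at day 0. 1583 of the 27221 peaks of the list (5.82%) met this rule. They were 13.7% of its 11557 promoter peaks. The other 9974 promoter peaks overlapped at least 1 of the other 3 lists and are called shared promoter peaks. The members were chosen by measured values, the presence of a called LSD1 peak in 1 list and its absence from 3 others, so peak scores and overlaps among these lists are given as descriptions without a test.

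3T3-L1 is a mouse preadipocyte line that becomes fat cells after hormonal induction. Control cells and cells labelled LSD1 overexpression were taken when confluent (day 0) and 7 days after induction with insulin, dexamethasone, rosiglitazone and isobutylmethylxanthine, and RNA was sequenced from 3 biological replicates of each of the 4 groups. Each of the 4 LSD1 peak lists, and each of 2 lists for the transcription factor Nrf1 at day 0 and day 7, came from 1 sample, so that no peak list has a replicate check. For Nrf1 at day 7 the sample's title and its genotype label disagree (LSD1 in one, Control in the other), and it was placed by day alone. How LSD1 was raised in these cells, and from how many clones, was not given in the sources used here. The 4 LSD1 lists held 3024 peaks (control day 0), 8303 (control day 7), 13997 (LSD1 day 0) and 27221 (LSD1 day 7). ChIP-seq read depth was not given in the sources used here, so a peak missing from a shorter list is not shown to be an unbound site.

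LSD1, encoded by Kdm1a, takes methyl groups off histone H3 and works in complexes with partners such as CoREST, histone deacetylases and the NuRD complex. It is best known for switching genes off, and it can also help to activate genes together with other factors. In fat tissue it has been studied for its part in adipocyte differentiation and in mitochondrial, oxidative gene programs. Many mammalian promoters lie in CpG islands, stretches rich in the dinucleotide CG. These are typical of housekeeping and cell cycle genes, while promoters of tissue-restricted genes are often poor in CG. Nrf1, nuclear respiratory factor 1, binds a GC-rich motif at promoters of nuclear genes for mitochondrial proteins and of many housekeeping genes.

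The promoters of 6 genes at member peaks are shown because they differ widely in CG content and include genes that rose and genes that fell. Mdm2 is shown for the wide peak around it. Each is the RefSeq promoter window on GRCm38.p6 (the mm10 coordinates), from 250 bases before to 50 bases after the start, written 5′ to 3′ on the gene's strand, with every CG dinucleotide in capitals. In all 6 the start lies inside a member peak. Plin1 (chr7:79732727-79733026, minus strand) encodes perilipin, the coat protein of lipid droplets, and has 2 CG in its window. Cidec (chr6:113435711-113436010, minus strand), for a protein that fuses lipid droplets, has 6. Cmbl (chr15:31568583-31568882, plus strand), for the hydrolase carboxymethylenebutenolidase homolog, has 9. Kif23 (chr9:61946750-61947049, minus strand), for a motor protein of the dividing cell's midzone, has 25. Nuf2 (chr1:169531415-169531714, minus strand), for a kinetochore protein, has 23. Mdm2 (chr10:117710709-117711008, minus strand), for the ubiquitin ligase that restrains p53, has 35.
Plin1: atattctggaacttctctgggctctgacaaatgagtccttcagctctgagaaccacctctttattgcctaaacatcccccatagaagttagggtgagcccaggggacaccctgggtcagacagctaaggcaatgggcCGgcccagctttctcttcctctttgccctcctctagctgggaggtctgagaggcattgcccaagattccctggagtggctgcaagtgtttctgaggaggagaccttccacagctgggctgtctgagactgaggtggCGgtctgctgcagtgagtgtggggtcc
Cidec: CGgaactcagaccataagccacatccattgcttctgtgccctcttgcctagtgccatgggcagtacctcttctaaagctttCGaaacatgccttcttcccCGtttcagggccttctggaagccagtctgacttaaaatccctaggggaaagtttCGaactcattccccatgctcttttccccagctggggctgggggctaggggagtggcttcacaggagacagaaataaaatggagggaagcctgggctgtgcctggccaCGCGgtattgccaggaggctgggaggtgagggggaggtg
Cmbl: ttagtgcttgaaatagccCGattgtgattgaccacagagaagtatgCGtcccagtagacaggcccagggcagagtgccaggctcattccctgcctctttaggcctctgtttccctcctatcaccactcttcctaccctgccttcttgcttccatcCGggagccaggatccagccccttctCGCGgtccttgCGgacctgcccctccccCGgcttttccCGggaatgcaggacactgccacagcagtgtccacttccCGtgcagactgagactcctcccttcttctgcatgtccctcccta
Kif23: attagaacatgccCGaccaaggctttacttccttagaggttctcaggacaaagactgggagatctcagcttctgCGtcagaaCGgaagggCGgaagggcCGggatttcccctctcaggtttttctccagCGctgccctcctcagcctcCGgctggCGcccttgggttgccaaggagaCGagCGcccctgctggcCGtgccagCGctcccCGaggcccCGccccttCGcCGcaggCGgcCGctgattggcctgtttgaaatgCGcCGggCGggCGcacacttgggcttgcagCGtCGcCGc
Nuf2: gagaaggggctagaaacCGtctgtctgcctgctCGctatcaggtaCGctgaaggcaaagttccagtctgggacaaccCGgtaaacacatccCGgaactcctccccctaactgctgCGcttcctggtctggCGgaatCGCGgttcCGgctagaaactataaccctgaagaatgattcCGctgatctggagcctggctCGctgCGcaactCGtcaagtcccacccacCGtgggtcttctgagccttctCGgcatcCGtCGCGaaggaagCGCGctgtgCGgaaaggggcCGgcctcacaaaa
Mdm2: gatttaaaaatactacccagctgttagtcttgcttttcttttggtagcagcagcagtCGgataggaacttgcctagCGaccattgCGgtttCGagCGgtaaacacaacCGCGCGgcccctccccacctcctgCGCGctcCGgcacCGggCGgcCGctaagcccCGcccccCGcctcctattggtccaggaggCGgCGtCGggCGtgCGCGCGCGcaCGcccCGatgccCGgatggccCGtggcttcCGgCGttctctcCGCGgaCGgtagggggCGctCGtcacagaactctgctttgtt

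The 3 fat and hydrolase gene windows had a CpG observed-to-expected ratio (CG count against that predicted from the C and G content) of 0.0862 for Plin1, 0.259 for Cidec and 0.38 for Cmbl, whereas the division genes Kif23 and Nuf2 had 0.791 and 0.884 and Mdm2 had 1.12. Expression is grouped below by the ratio of the central 300 bases of the peak, not of these windows. That ratio was 0.302 for the highest-scoring peak at Plin1, 0.339 at Cidec and 0.36 at Mdm2. 10 short motifs were searched on both strands. The Plin1 window held a C/EBP site (TTGCNNAA), C/EBP being a factor family of fat cell differentiation. The windows of Kif23 and Mdm2 both held a Sp/KLF GC box (GGGCGG) and a CCAAT box, and that of Mdm2 also the ETS core (CCGGAAG). None of the 10 motifs was found in those of Cidec, Cmbl and Nuf2, which says only that these letters were not in these 300 bases.

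Member peaks were lower and narrower than shared promoter peaks. The authors' peak score had a median of 128.6 in members against 593.8 in shared promoter peaks and 83.69 in the 11755 distal peaks found in this list alone. 61.2% of members and 92.4% of shared promoter peaks scored at least 100, and 8.02% and 58.2% at least 500. The median width was 635 bases in members, 1116 in shared promoter peaks and 516 in distal peaks of this list alone. 62.2% of members covered a transcription start, against 88.7% of shared promoter peaks. Of the 599 members that did not, 260 were centred upstream of the nearest start and 339 downstream.

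**Figure D1:**
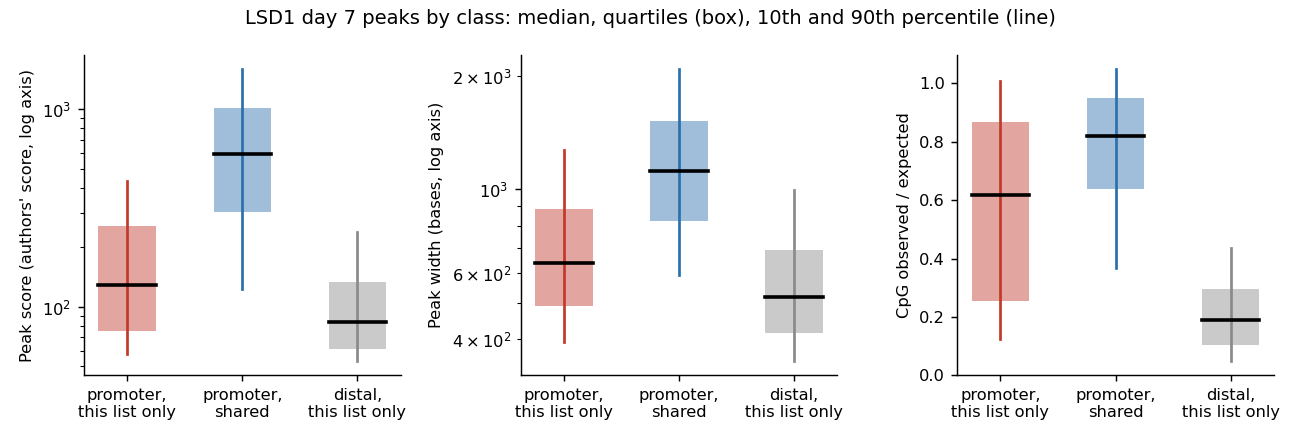
Score, width and CpG observed-to-expected ratio of LSD1 day 7 peaks in 3 classes (vertical axes; score and width on log axes): black bar, median; box, quartiles; line, 10th to 90th percentile. The 1583 member peaks (promoter, this list only) lie between the 9974 shared promoter peaks and the 11755 distal peaks of this list in all 3 measures.

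In base composition, too, the members stood between both other classes. The median CpG ratio of the central 300 bases was 0.6172 in members, 0.8207 in shared promoter peaks and 0.188 in the distal peaks, and the median GC content was 59.33%, 65.33% and 50%. The members were also mixed: 388 (24.5%) had a ratio below 0.25 and 606 (38.3%) had 0.75 or more, against 6.1% and 61.6% of shared promoter peaks. Members poor in CpG had a median score of 94.17 and a median width of 565.5 bases, and those with a ratio of 0.75 or more 184.4 and 730 bases. Members were found on every chromosome with more than 2 promoter peaks, and made up 7.14% of the promoter peaks of chromosome 16 at the lowest and 16% of those of the X chromosome at the highest.

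The threshold of 1 kb cut through a continuous range. The 5 members farthest from a start, at Tldc2, Prkar2b, Rps19, Prickle3 and Isca2, were 994 to 1000 bases away and scored 63.26 to 182.11. The 5 peaks of this list alone just outside the threshold, nearest to Mir6925, n-R5s128, A630001O12Rik, Plxdc1 and Tmem165, were 1004 to 1013 bases away and scored 63.48 to 613.32. Absence of overlap had an edge as well: 255 members (16.1%) had a peak of another LSD1 list within 1000 bases, and those at Irx2, Negr1, Cnksr3, Etfrf1 and 2610507B11Rik missed one by 1 to 4 bases. The median distance to the nearest peak of another list was 25 kb. 604 members (38.2%) had another peak of their own list within 1000 bases, as did 29.3% of shared promoter peaks.

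The strongest member peaks included a long run on chromosome 10 around Mdm2, regions with much repeated sequence, and fat cell genes. 19 members were tied at the highest score of 3100.00, a value shared by 293 peaks of the list, so the score does not order them. Outside that run the tied peaks lay at Sfi1, Pisd-ps1, Cwc22, Speer4d (2 peaks), Rn4.5s, Erdr1, 2610005L07Rik, 6820431F20Rik, 1600014C10Rik, 2700054A10Rik, Plin1, Cidec and Mir7034. The share of bases that the genome's soft-masking marks as repeats ran from 3.9% at Mir7034 and 11.2% at a Speer4d peak to 50.6% at Erdr1 and 84.8% at 2700054A10Rik, against a median of 7.627% over all members. How many of these regions have close copies in the genome was not measured. 1600014C10Rik, whose peak was 14% masked, had 39.65 ± 1.91 CPM (SD, n = 3) in control and 101 ± 6.65 in LSD1 cells at day 7 (log2 1.35, edgeR adjusted p = 1.17e-05). The peak at Plin1 (chr7:79726178-79733154) was 6977 bases wide, that at Cidec (chr6:113429602-113436291) 6690 bases and that at Mir7034 (chr5:135731488-135737613) 6126 bases.

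The run around Mdm2 was the widest stretch of member peaks. Between positions 117200000 and 117900000 of chromosome 10 the LSD1 day 7 list held 22 peaks that covered 422 kb, or 60.3% of the window. In the same window control day 0 had 1 peak of 1.01 kb, control day 7 had 2 peaks of 2.42 kb in all, and LSD1 day 0 had 5 peaks of 9.85 kb in all. Both Nrf1 lists had 1 peak there, of 1.22 kb at day 0 and 1.12 kb at day 7. The member peaks of the run lay at Lyz2 and Lyz1 (lysozymes, the former a macrophage marker), Cpsf6 (an RNA processing factor), Cpm (carboxypeptidase M), Mdm2 with Slc35e3, and Nup107 (a nuclear pore protein). The peak at Cpm spanned 170714 bases (chr10:117490493-117661206) and that at Mdm2 and Slc35e3 122523 bases (chr10:117662177-117784699). DNA copy number of this stretch and the input signal there were not measured in the files used here, so the width and score of the run are not shown to reflect LSD1 binding alone.

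**Figure D2:**
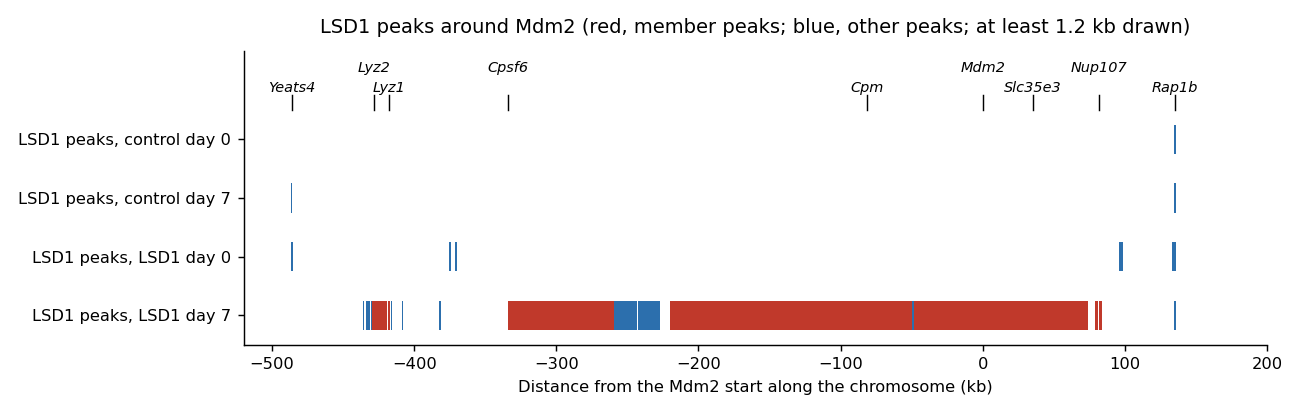
LSD1 peaks in the 4 lists against distance from the Mdm2 start in kb (horizontal axis; ticks at the top mark gene starts). Red bars are member peaks and blue bars other peaks; only LSD1 day 7 has wide blocks, 22 peaks over 422 kb, against 1, 2 and 5 peaks in the lists above it.

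RNA from Mdm2 was abundant in all 12 libraries, and at day 7 it did not pass the test between LSD1 and control cells. Levels are in CPM, counts scaled to library size with TMM factors. Mdm2 had 4721, 4343 and 4390 CPM in the 3 control day 0 libraries, 6039, 6760 and 6140 at control day 7, 5018, 5733 and 5023 at LSD1 day 0, and 6628, 5943 and 4300 at LSD1 day 7. The 2 groups at day 7 overlapped, and the difference of LSD1 against control at day 7 was -0.17 on the log2 scale (SE 0.146, edgeR adjusted p = 0.335). By mean CPM over the 12 libraries Mdm2 ranked 5 among the 24346 features of the count files and its neighbour Slc35e3 ranked 50. Slc35e3 had means of 1228, 1467, 1139 and 1590 CPM in control day 0, control day 7, LSD1 day 0 and LSD1 day 7. Cpm itself was at 2.38 and 2.29 CPM at day 0 and higher at day 7, 43 ± 1.37 (SD, n = 3) in control and 160.2 ± 11.6 in LSD1 cells. The day 7 difference of Cpm was 1.90 on the log2 scale (SE 0.146, edgeR adjusted p = 1.92e-07). Lyz2 had at most 2.83 CPM as a group mean and 0.054 at LSD1 day 7.

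Expression was compared by edgeR's quasi-likelihood test across all 12 libraries, with p adjusted over the 13356 genes tested and a threshold of 0.05. The RNA values had no part in choosing the members. The labels were checked first on Kdm1a, whose own promoter carries a member peak (chr4:136602084-136603050, score 374.85). Kdm1a had 79, 86.3 and 84.1 CPM in control at day 0, 89.4, 104.2 and 99 in LSD1 cells at day 0, 66, 67.6 and 74.5 in control at day 7, and 54.3, 55.4 and 54.4 in LSD1 cells at day 7. At day 0 all 3 LSD1 libraries were above the 3 control libraries, without passing the test (log2 0.23, edgeR adjusted p = 0.0969), and the difference passed, at 0.29, without LSD1 day 0 replicate 1. At day 7 all 3 were below them (log2 -0.34, SE 0.0967, edgeR adjusted p = 0.00751). Kdm1a RNA thus goes against the label at day 7. Whether these counts include RNA of an added LSD1 copy was not given in the sources used here. From here "LSD1 cells" means the libraries so labelled. Nrf1 RNA did not pass the test at either day, with means of 28.2 CPM in control and 33.9 CPM in LSD1 cells at day 7 (log2 0.27, edgeR adjusted p = 0.116), and passed at day 7, with the same 0.27, when LSD1 day 0 replicate 1 was left out.

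The libraries held 27512273 to 37565527 counts over all transcripts. LSD1 day 0 replicate 1 stood apart from its group: its log2 CPM correlated at 0.955 and 0.957 with the other 2 libraries, while all other pairs within a group were at 0.988 to 0.993. Leaving that library out moved the counts for LSD1 against control at day 0 most. The fat cell genes Adipoq, Plin1, Cidec and Cd36 did not exceed 3.06 CPM in any day 0 library and reached at least 232 CPM in every day 7 library. Pparg, also a fat cell marker, lay outside both bounds. At day 0 it already had 2918 counts in control and 2620 in LSD1 cells, and its control mean at day 7 was below 232 CPM. The planned markers also included Fabp4 and Lpl, whose values are not given here. Markers of endothelium summed to at most 4.09 CPM in any library. Those of macrophages summed to 13.8 to 16.2 CPM at control day 7 and 6.82 to 7.19 at LSD1 day 7, those of muscle to 12.7 to 15.6 and 33.6 to 44.1, and those of bone or cartilage to 119 to 155 and 46.1 to 49.5. The part of such cells in the results was not tested. In bulk RNA, fewer cells of a type and less RNA per cell cannot be told apart.

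The members lie within 1 kb of starts of 1532 genes, of which 1375 are in the count files and 1226 passed the filter on low counts (89.2%, against 54.9% of all 24346 features). 310 of the 1532 genes also had a shared promoter peak, and 168 had 2 or more member peaks, so that peaks and genes are not independent of each other. Member peaks sat at genes of moderate level: among tested genes the median at LSD1 day 7 was 5.98 CPM per kb of transcript, against 13.7 for genes at shared promoter peaks alone, 0.327 for genes at neither and 8.77 for all genes tested. In control cells at day 7, from which no member peak was called, the same genes at member peaks had a median of 6.12 CPM per kb.

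Genes at member peaks moved in both directions, in shares near those of all genes. For LSD1 against control at day 7, 428 of the 1226 (34.9%) were higher and 442 (36.1%) lower, against a background of 30.2% higher and 33.4% lower among all 13356 genes tested. The median log2 difference was -0.01 at member peaks and -0.05 over all genes. With genes that had 0 counts in a group set at a bound of 3 counts, these medians were -0.01 and -0.05 as well. During differentiation of LSD1 cells (day 7 against day 0), 476 (38.8%) rose and 445 (36.3%) fell, against 32.6% and 37.2% of all genes. Without LSD1 day 0 replicate 1 the counts were 524 (42.6%) and 481 (39.1%), against 36.5% and 39.6% of all genes. In control cells 370 (30.2%) rose and 264 (21.5%) fell, against 23.7% and 24.6%. LSD1 cells differed less from control at day 0, where 163 genes (13.3%) were higher and 182 (14.8%) lower against a background of 12.8% and 13.0%. Without LSD1 day 0 replicate 1 these became 255 (20.7%) and 367 (29.8%), and the shares of all genes became 22.6% and 26%. The interaction, which asks whether differentiation changed a gene more in LSD1 cells than in control, was above 0 for 326 (26.6%) and below 0 for 370 (30.2%), against 23.9% and 28.1%. Without that replicate it was so for 414 (33.7%) and 420 (34.1%), against 31% and 33.7% of all genes. Which direction held more genes depended on how the members were drawn: with starts within 2500 bases, 39% were higher and 31.4% lower at day 7, and the interaction was above 0 for 31.2% and below for 25.5%. The comparisons share groups of libraries and are not independent of one another.

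**Figure D3:**
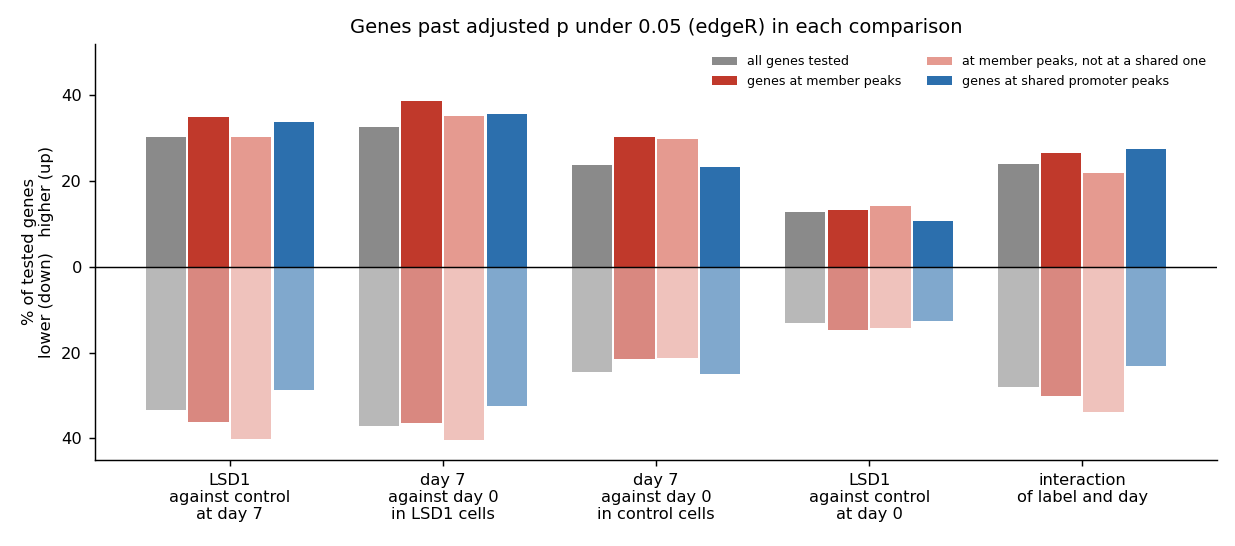
Percent of tested genes past an edgeR adjusted p of 0.05, higher (up) or lower (down), in 5 comparisons (horizontal axis) for all 13356 genes tested, the 1226 genes at member peaks, those of them without a shared promoter peak, and genes at shared promoter peaks alone. At day 7, 34.9% of genes at member peaks were higher and 36.1% lower, beside 30.2% and 33.4% of all genes.

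The 943 tested genes whose starts had a member peak and no shared one leaned lower at day 7: 287 (30.4%) were higher in LSD1 cells than in control and 379 (40.2%) lower. Over all 13356 genes tested the shares were 30.2% and 33.4%. For genes at shared promoter peaks alone they were 33.7% and 28.7%, and for genes at neither kind of peak 15.9% and 48.4%. The difference between these sets was not tested.

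Rises and falls were also counted by the base composition of the peak, and genes at CpG-poor member peaks rose more often than they fell. Each gene was placed by its highest-scoring member peak. Of the 212 tested genes whose peak had a CpG ratio below 0.25, 128 (60.4%) rose and 46 (21.7%) fell during differentiation of LSD1 cells. Of the 585 with a ratio of 0.75 or more, 198 (33.8%) rose and 231 (39.5%) fell. Over all 13356 genes tested 32.6% rose and 37.2% fell. Without LSD1 day 0 replicate 1, 64% of the CpG-poor and 37.7% of the CpG-rich set rose, beside 36.5% of all genes tested. Against control at day 7, 48.6% of the CpG-poor set were higher and 25.9% lower in LSD1 cells, and 32% and 38.8% of the CpG-rich set. Over all genes tested these shares were 30.2% and 33.4%. In control cells, which had no such peak called, 50.5% of the CpG-poor set rose and 12.3% fell, and 22.4% and 26.5% of the CpG-rich set. Of all genes tested 23.7% rose and 24.6% fell there.

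At shared promoter peaks of the same low ratio, more genes fell than rose in LSD1 cells, and more rose than fell in control cells. Of 278 genes at shared peaks with a ratio below 0.25, 36.3% rose and 44.2% fell during differentiation of LSD1 cells, and 37.8% rose and 23% fell in control cells. At a ratio of 0.75 or more, 36% of 6410 genes rose and 30.4% fell in LSD1 cells. These are counts side by side, and the difference between both kinds of peak was not tested.

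**Figure D4:**
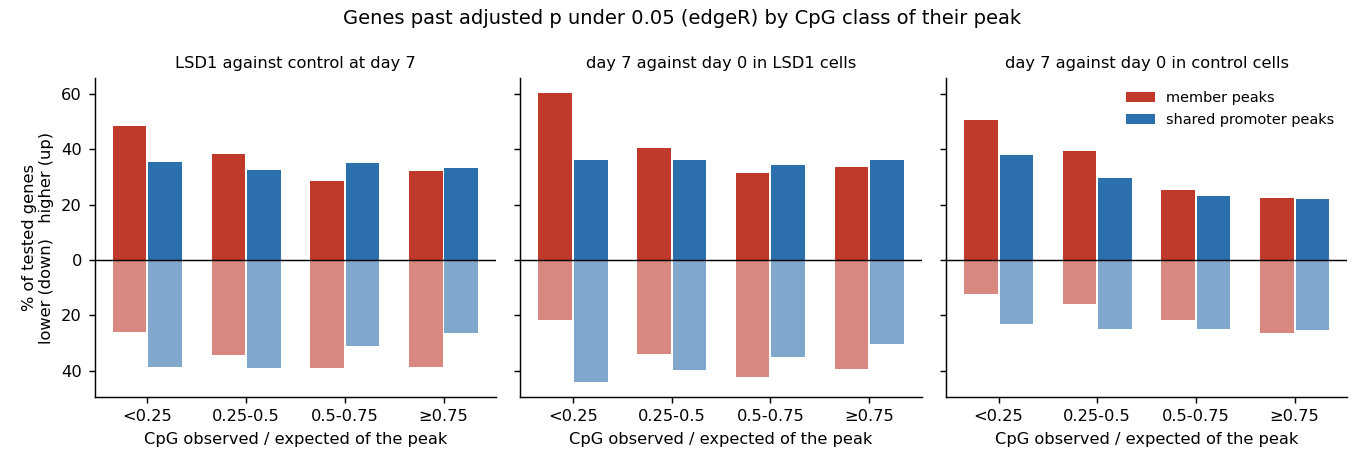
Percent of tested genes past an edgeR adjusted p of 0.05, higher (up) or lower (down), by the CpG observed-to-expected ratio of their peak (horizontal axis) in 3 comparisons; red, genes at member peaks; blue, genes at shared promoter peaks alone. In the lowest class 60.4% of genes at member peaks rose in differentiating LSD1 cells, against 36.3% at shared peaks and 32.6% of all genes tested.

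Genes of the adipocyte program at member peaks rose as fat cells formed, most of them further in LSD1 cells. 9 of 27 genes of that list (33.3%) had a member peak. Of all features in the count files 5.65% did, and of the 13356 genes tested 1226 did. The 9 included Pparg, the nuclear receptor that drives fat cell formation, the adipokine genes Adipoq and Retn, and the lipid droplet genes Plin1 and Cidec. The others were the fatty acid and glucose transporters Cd36 and Slc2a4 (GLUT4), the phosphatidate phosphatase Lpin1, and Adig (adipogenin). All 9 rose from day 0 to day 7 in LSD1 cells, and all 9 in control cells. At day 7, 7 of the 9 were higher in LSD1 cells than in control and 1, Retn, was lower, with a median log2 difference of 1.99. Of the other 18 tested genes of the list, 17 were higher and 0 lower. Over all 13356 genes tested 30.2% were higher and 33.4% lower.

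Plin1 showed the pattern in each library. It had 0.118, 0.0403 and 0.516 CPM in control at day 0 and 0.205, 0.143 and 0.0365 in LSD1 cells at day 0. At day 7 it had 273, 232 and 246 CPM in control and 917, 976 and 1085 in LSD1 cells. The day 7 groups did not overlap, and both were far above day 0. The day 7 difference was 1.99 on the log2 scale (SE 0.222, edgeR adjusted p = 5.73e-06). Its largest member peak had the tied top score, and a second, at chr7:79733312-79735320, scored 638.23.

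Cidec reached 621, 571 and 600 CPM in control and 3685, 3965 and 4574 CPM in LSD1 cells at day 7, a log2 difference of 2.77 (SE 0.396, edgeR adjusted p = 4.91e-05). At day 0 no library exceeded 3.06 CPM. Trarg1, which encodes a regulator of GLUT4 trafficking in fat cells, had the member peak chr11:76679490-76682831 with a score of 1624.71 and a CpG ratio of 0.049. It had 69.9, 62.3 and 61.7 CPM in control and 632, 620 and 680 in LSD1 cells at day 7. The groups were far apart (log2 3.32, SE 0.246, edgeR adjusted p = 1.45e-07).

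Slc2a4 had 36.2, 33.2 and 36.8 CPM in control and 272, 290 and 340 CPM in LSD1 cells at day 7 (log2 3.09, SE 0.161, edgeR adjusted p = 7.28e-09). Unlike Plin1 its peak (chr11:69946718-69949307, score 729.43) had a CpG ratio of 0.801. Pparg was already present at day 0, at a mean of 38.7 CPM in control and 32.5 in LSD1 cells, and reached 133.1 and 341.5 CPM at day 7. Its member peak at chr6:115421644-115422409 scored 167.41, and a shared promoter peak lay at another of its starts.

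Adipoq and Retn did not follow the others at day 7. Adipoq had 472, 452 and 479 CPM in control and 684, 620 and 736 in LSD1 cells, higher in all 3 libraries without passing the test (log2 0.54, SE 0.278, edgeR adjusted p = 0.107). It passed, with the same 0.54, when LSD1 day 0 replicate 1 or control day 0 replicate 3 was left out. Retn, for the adipokine resistin, was lower in LSD1 cells, with a mean of 24.7 against 67.5 CPM (log2 -1.45, edgeR adjusted p = 0.00388). Cd36 had the most member peaks of the list, 4, at its several starts. It was at 966, 897 and 926 CPM in control and 3869, 3667 and 3095 CPM in LSD1 cells (log2 1.93, edgeR adjusted p = 0.000323).

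Among all genes at member peaks, the 10 with the largest rise against control at day 7 were Adig, Ephx2, Cmbl, Scd3, Rnf144b, Olr1, Adora1, Aldh3b2, Mrap and Trarg1. Several act on lipids or in fat cells: Ephx2 is an epoxide hydrolase of lipid epoxides, Scd3 a stearoyl-CoA desaturase, Olr1 a receptor for oxidized lipoproteins, Adora1 the adenosine receptor that restrains lipolysis, and Mrap an accessory protein of the ACTH receptor. Their log2 differences ran from 3.32 (Trarg1) to 4.57 (Adig). Adig had 5.08, 4.82 and 6.24 CPM in control and 125, 121 and 137 CPM in LSD1 cells. Ephx2 had 9.44, 8.62 and 10.7 CPM against 211, 204 and 262 CPM. Cmbl, whose window is printed above, had 4.28, 3.34 and 4 CPM against 91.3, 82.8 and 85.4 CPM. Each of the 10 was without overlap between both groups at day 7, which the naming rule required.

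During differentiation of LSD1 cells the largest rises included those of Cd36, Cidec, Mrap and Plin1. Mrap went from a mean of 0.0618 to 528.6 CPM. Adig had 1 count at day 0 and 7257 at day 7, a ratio of 8584 with a 95% counting interval of 1540 to 339108 (exact Clopper-Pearson). Intervals cover counting error only.

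Brown and beige fat genes with a member peak were Ebf2, Kcnk3 and Pdk4, 3 of 19 on that list (15.8%), beside 5.65% of all features in the count files. Kcnk3, a potassium channel of brown adipocytes, had a mean of 56.9 CPM in control and 284.2 in LSD1 cells at day 7 (log2 2.32, edgeR adjusted p = 2.59e-06). Pdk4, a kinase that spares glucose by switching off pyruvate dehydrogenase, had 75.2 and 256.8 CPM (log2 1.77, edgeR adjusted p = 2.75e-05). Both were already higher in LSD1 cells at day 0, Kcnk3 by 1.43 (edgeR adjusted p = 0.00227) and Pdk4 by 2.28 (edgeR adjusted p = 5.02e-05). Neither passed the test of the interaction, Kcnk3 at 0.89 (edgeR adjusted p = 0.0526) and Pdk4 at -0.51 (edgeR adjusted p = 0.223), though both did without LSD1 day 0 replicate 1, at 1.33 and -0.80. Ebf2, a transcription factor of brown preadipocytes, did not pass at day 7, with 9.2 and 8.69 CPM. At day 0 it was lower in LSD1 cells, at 2.12 against 10.3 CPM (log2 -2.28, edgeR adjusted p = 3.34e-05), a difference of -2.08 without that replicate.

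**Figure D5:**
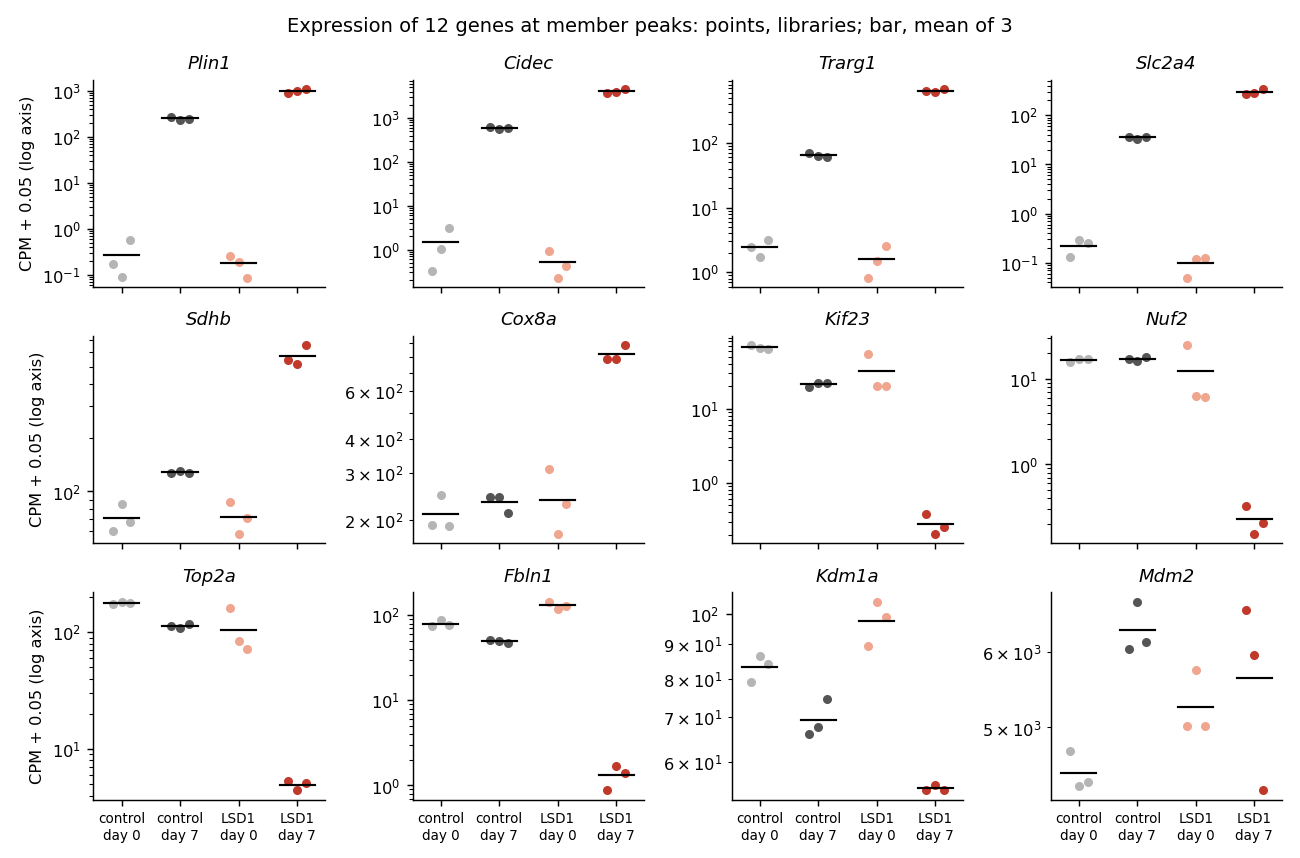
CPM plus 0.05 (vertical, log axis) of 12 genes with a member peak in each of 12 libraries (points; 4 groups on the horizontal axis; bar, mean of 3). Plin1, Cidec, Trarg1 and Slc2a4 are highest at LSD1 day 7, Kif23, Nuf2, Top2a and Fbln1 are lowest there, and Mdm2 overlaps between both day 7 groups.

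Genes of energy metabolism at member peaks were higher in LSD1 cells with few exceptions. 7 of the 79 nuclear genes of oxidative phosphorylation had a member peak, a share of 8.86%, beside 1226 of all 13356 genes tested. The 7 were Ndufa1 of complex I, Sdhb of complex II, Cox6a1, Cox6c, Cox7b and Cox8a of cytochrome oxidase, and Atpif1, the inhibitor of ATP synthase. 6 of these were higher at day 7 and Atpif1 was lower, while 69 of the other 71 tested genes of the list were higher and 0 lower. Over all 13356 genes tested 30.2% were higher and 33.4% lower. The member peaks at Cox6c and Cox6a1 lay 45 and 287 bases from a peak of another LSD1 list, the others 1.1 kb or more. Of the 79 genes 73 had a shared promoter peak, so a gene can have both kinds. Sdhb had 127, 130.1 and 127 CPM in control and 545, 515 and 656 CPM in LSD1 cells (log2 2.16, SE 0.167, edgeR adjusted p = 2.15e-07), with no overlap. Cox8a had 244, 244 and 214 CPM against 788, 790.2 and 884 CPM (log2 1.81, SE 0.179, edgeR adjusted p = 1.86e-06). Atpif1 had means of 150.9 and 108.6 CPM (log2 -0.48, edgeR adjusted p = 0.0161), a call lost without LSD1 day 7 replicate 2 (-0.43) or control day 7 replicate 2 (-0.36). The smaller rises of Cox6c (0.82), Cox7b (0.59) and Ndufa1 (0.78) were lost without LSD1 day 7 replicate 1, at 0.57, 0.38 and 0.68, and without replicate 2, at 0.86, 0.59 and 0.84. Control day 7 replicates 1 and 2 also decided these 3 calls (0.74 and 0.79 for Cox6c, 0.55 and 0.59 for Cox7b, 0.67 and 0.84 for Ndufa1), and for Ndufa1 the replicates 3 as well (0.81 without that of LSD1 cells and 0.85 without that of control).

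All 4 TCA cycle genes with a member peak, Idh3a (isocitrate dehydrogenase), Suclg1 (succinate-CoA ligase), Sdhb and Pcx (pyruvate carboxylase), were higher at day 7, with a median log2 difference of 1.79, as were 16 of the other 18 tested genes of that list. Of the 22 genes of the list 21 had a shared promoter peak. The member peaks at Idh3a and Suclg1 lay 472 and 138 bases from a peak of another LSD1 list, those at Sdhb and Pcx over 14 kb. Idh3a had means of 264.6 CPM in control and 971.8 in LSD1 cells, and Pcx 543.9 and 1781 CPM. Both genes of fatty acid oxidation, Cpt2 and Slc25a20, which bring fatty acids into the mitochondrion, were higher by 1.47 on the log2 scale, and of the other 20 tested genes 19 were higher and 1 lower. All 6 genes of the mitochondrial ribosome, Mrpl11, Mrpl22, Mrpl23, Mrps2, Mrps10 and Mrps30, were higher, by 0.74 to 1.65, though Mrpl23 lay below 1 CPM and lost its call without LSD1 day 7 replicate 2 (1.44) or control day 7 replicate 2 (1.42). Of the other 70 tested genes of that list, which had no member peak, 61 were higher and 1 lower. Of the 2 genes for mitochondrial biogenesis and shape, Opa1 was higher (log2 0.48, edgeR adjusted p = 0.00965) and Yy1 did not pass (0.34, edgeR adjusted p = 0.123) unless LSD1 day 0 replicate 1 was left out (0.34). The member peaks at Cpt2, Mrps10 and Yy1 lay 66, 78 and 134 bases from a peak of another LSD1 list. Those at the other genes of these 3 lists were 2.58 kb or more away. A shared promoter peak lay at 19 of 23 fatty acid oxidation genes and 71 of 76 mitochondrial ribosome genes.

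Cell division genes went the other way. 8 of 27 genes of the cell cycle list (29.6%) had a member peak, beside 5.65% of all features in the count files. The 8 were Top2a (topoisomerase), Ccne1 (cyclin E1), Mcm3 and Mcm5 (replicative helicase), Rrm2 (ribonucleotide reductase), and the mitotic kinases Bub1, Aurkb and Plk1. 7 of the 8 were lower in LSD1 cells than in control at day 7 and 0 higher, with a median log2 difference of -3.25, and Ccne1 did not pass (-0.51, edgeR adjusted p = 0.14) unless LSD1 day 0 replicate 1 was left out (-0.51). Of the other 19 tested genes of the list 14 were lower and 2 higher. Over all 13356 genes tested 33.4% were lower and 30.2% higher. Top2a had 113, 108.4 and 119 CPM in control at day 7 and 5.3, 4.39 and 5.07 in LSD1 cells (log2 -4.53, SE 0.272, edgeR adjusted p = 2.34e-08). At day 0 it had 174, 182 and 177 CPM in control and 160, 83.5 and 71.6 in LSD1 cells, where replicate 1 was higher than the other 2 libraries.

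The same replicate was the highest of its group for Plk1 (75.2 against 19.7 and 18.8 CPM) and Mcm5 (109 against 31.6 and 32.4 CPM). With it, 5 of the 8 genes were lower in LSD1 cells at day 0 and 0 higher, and without it all 8 were lower. Of all genes tested 13.0% were lower at day 0 with it and 26% without it. The part of this library's cells in the result was not tested.

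The 10 largest falls among genes at member peaks were those of Iqgap3, Nuf2, Kif23, Ifit3b, Bub1, Cenpf, Mdga1, Fbln1, Gdf11 and Vstm2a, and 5 of these, Iqgap3, Nuf2, Kif23, Bub1 and Cenpf, are genes of growth or mitosis. Kif23 had 19.6, 21.9 and 22.3 CPM in control and 0.331, 0.155 and 0.207 in LSD1 cells at day 7 (log2 -6.5, SE 0.507, edgeR adjusted p = 2.28e-07). Nuf2 had 17.2, 16.3 and 18.2 CPM against 0.276, 0.103 and 0.155 CPM (log2 -6.57, edgeR adjusted p = 2.23e-06). In both, the LSD1 libraries at day 7 were at about the level of a few counts. Iqgap3, a scaffold protein of dividing cells, had 835 counts in control and 2 in LSD1 cells, a ratio of 414 with a 95% counting interval of 114 to 3420.

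The other 5 of the 10 were Fbln1, Vstm2a, Gdf11, Ifit3b and Mdga1. Fbln1, for the matrix protein fibulin, had 51.1, 49.8 and 46.8 CPM in control and 0.828, 1.65 and 1.35 in LSD1 cells at day 7 (log2 -5.26, SE 0.187, edgeR adjusted p = 4.38e-10). Vstm2a, for a secreted protein of preadipocytes, rose in control cells from a mean of 5.57 to 123.5 CPM and fell in LSD1 cells from 21.4 to 4.52. Gdf11, a growth factor of the TGF-beta family, had 10.4 CPM in control and 0.304 in LSD1 cells at day 7. Ifit3b, an interferon-induced gene, has a close copy, Ifit3, with which reads may be shared, so its fall from 9.42 to 0.14 CPM is uncertain. Postn, for the matrix protein periostin, was the 1 gene of the 24 on the preadipocyte and fibroblast list with a member peak, and had 785.2 ± 38.2 CPM (SD, n = 3) in control and 64.9 ± 2.9 in LSD1 cells.

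11 of 50 DNA repair genes (22%) had a member peak, the highest number of any list, beside 5.65% of all features in the count files. Most did not pass at day 7: 2 were higher (Ung, a uracil glycosylase, and Ercc8), 2 lower (Fanca and Fancm) and 7 did not pass. Without LSD1 day 0 replicate 1, 2 were higher and 5 lower, as Fancf (-0.42), Fancg (-0.44) and Rad54l (-0.64) passed too. Over all 13356 genes tested 30.2% were higher and 33.4% lower, and 35.4% and 38.3% without that replicate. Ung had a mean of 3.86 CPM in control and 16.8 in LSD1 cells (log2 2.12, edgeR adjusted p = 1.8e-06). Besides Kdm1a, 2 genes of LSD1 complexes had one: Gse1, of the CoREST complex, was lower (log2 -1.09, edgeR adjusted p = 2.22e-06) and Mta1, of NuRD, higher (0.32, edgeR adjusted p = 0.0361). The call of Mta1 was lost without LSD1 day 7 replicate 2 or 3 (0.27 in both), control day 7 replicate 3 (0.20) or control day 0 replicate 3 (0.32), and that of Ercc8 (0.59) without LSD1 day 7 replicate 2 (0.47) or control day 7 replicate 1 (0.57) or 2 (0.59). The remaining lists held few members. Of 52 general transcription and Mediator genes 3 had a member peak, of 44 splicing genes 2, of 31 proteasome genes 1, of 14 stress genes 1 (Atf6, log2 1.53, edgeR adjusted p = 0.000135) and of 20 interferon genes 1. No gene of the muscle, bone or cartilage, or endothelium lists had one.

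Nrf1 peaks were found at few member peaks. 78 members (4.93%) overlapped an Nrf1 peak of day 0 and 72 (4.55%) one of day 7, with 51 in both lists and 99 in either. Of shared promoter peaks 13.5% and 14.7% did, and of distal peaks of the LSD1 day 7 list alone 0.783% and 0.272%. Shared promoter peaks were also wider, as given above, and no test was made between these classes. Members with an Nrf1 peak had a median LSD1 score of 225.1 and those without 123.7.

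The NRF1 core motif (CGCATGCG) was in the central 300 bases of 15 of the 99 members with an Nrf1 peak (15.2%) and of 12 of the 1484 without (0.809%). For shared promoter peaks it was 10.6% and 1.03%. Members with an Nrf1 peak at both days included Pds5b, a cohesin regulator, where the Nrf1 peak scored 324.23 at day 0 and 361.45 at day 7. Pcgf3, a Polycomb ring finger protein, had 173.49 and 301.12, and Ciao3, an iron-sulfur cluster assembly factor, had 114.6 and 67.06. The NRF1 core was not in the central 300 bases of the member peaks at Pds5b, Pcgf3 and Ciao3. Opa1, Ccne1, Fancm and Cenpf were further named genes among the 99. Of 103 tested genes at these peaks 26 (25.2%) were higher and 44 (42.7%) lower in LSD1 cells at day 7, beside 34.9% and 36.1% of all genes at member peaks.

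RefSeq promoters were compared over the same 300-base window. 1136 promoters lay within 1 kb of a member peak and not of a shared one, 10250 of a shared one alone, and 20843 of no peak of the LSD1 day 7 list. The median CpG ratio was 0.7081, 0.805 and 0.2372. A Sp/KLF GC box was in 55.6%, 68.4% and 18.5%, and in 35.7% of all 32851 promoters. The ETS core (CCGGAAG) was in 11%, 20.9% and 2.9% (8.86% of all), and the NRF1 core in 3.08%, 4.62% and 0.489% (1.87% of all). The CREB site, the E-box and the YY1 core were also least frequent in promoters with no peak (0.921%, 5.31% and 1.54%). The C/EBP site, the TATA box and the AP-1 site were instead most frequent there. The AP-1 site (TGANTCA) was in 5.37%, 4.08% and 9.73% (7.81% of all). The C/EBP site (TTGCNNAA) was in 9.95%, 7.25% and 12.5% (10.8% of all), and the TATA box (TATAAA) in 6.25%, 6.02% and 17.8% (13.6% of all). The CCAAT box was in 39.3%, 38.3% and 37% (37.4% of all). A match is a run of letters and was not tested as a bound site.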

How the data were processed

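Mouse 3T3-L1 cells were profiled in 12 RNA-seq libraries (4 groups, 3 replicates) and 6 ChIP-seq peak lists, and the 6 input samples were not analysed here. The authors deposited raw read counts per RefSeq transcript (30521 rows a library), and peak lists with a peak score, whose lowest value was about 50 in each list. Per the submitters' processing notes the tools were TopHat2 2, HOMER, edgeR and DESeq 1.8.3 for RNA, and Bowtie2 and MACS 1.41 for ChIP-seq, with build mm10. The input, cut-off and depth of the lists were not given in the sources used here.

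Each gene was represented by its transcript with the most counts (24346 features). 1200 transcripts without a name held 0.896% of counts and were kept, each as a feature under its own identifier. Counts were fitted with edgeR 4.0.16 (R 4.3.3): filterByExpr, TMM scaling, a robust quasi-likelihood fit with 1 mean for each of 4 groups, two-sided tests and Benjamini-Hochberg adjustment over 13356 genes. The fit was tested on simulated data. Totals of 27512273 to 37565527 counts a library set the precision. Starts came from curated transcripts of RefSeq GRCm38.p6, and overlap meant 1 shared base. GC, CpG ratio and soft-masking came from the genome with pysam 0.24.0, the first 2 over the central 300 bases of a peak. Promoter sequences came from RefSeq's table.

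Genes were named by rule: the 10 largest rises and falls at day 7 and the 5 of each during differentiation of LSD1 cells, all called, averaging 10 CPM or more and without overlap between groups, up to 3 genes per list and direction, Kdm1a and Nrf1, and for peaks the 10 highest scores (19 with ties), the 5 just inside and 5 just outside 1 kb, and peaks at list genes. 1 gene that the rule named is not reported here. The genes of the Mdm2 window and those of the Nrf1 overlap were chosen after their values were seen. The members and lists were chosen with earlier results of these data known. Alternatives were DESeq2 1.42.0, no filter, a replicate block, summed transcripts, leaving out each library and other settings of the peak rule. The labels do not say that replicates came from separate cultures beyond calling them biological, so p-values measure the spread between these libraries.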

Additional observations from a re-analysis of the deposited data

Results flagged for a closer look

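The change from day 0 to day 7 differed between LSD1 and control cells, by edgeR's test of the interaction, for 38 of the 46 named genes with at least 10 counts in each group. The interaction is the log2 change in LSD1 cells minus that in control cells. It was above 0 for 24 genes and below 0 for 14. Most of these genes were named for their difference at day 7 or their change in LSD1 cells, which are parts of the interaction, so the count is a description. Among all 13356 genes tested 23.9% were above and 28.1% below 0.

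For adipocyte list genes it was 2.80 for Plin1, 4.43 for Cidec, 3.98 for Cd36 and 2.65 for Lpin1, and for others with a large rise 3.91 for Trarg1, 6.50 for Ephx2, 3.16 for Olr1, 2.79 for Rnf144b and 3.63 for Aldh3b2. Genes of energy metabolism followed with 2.14 for Sdhb, 1.63 for Cox8a, 1.62 for Cox6a1, 2.32 for Idh3a, 1.39 for Pcx, 1.51 for Cpt2, 1.59 for Slc25a20 and 0.69 for Opa1, and Atpif1 was at -0.74. The mitochondrial ribosome genes Mrpl11, Mrps10 and Mrps2 had 0.86, 1.07 and 1.04. Division genes were below 0: Bub1 at -4.94, Cenpf at -4.80, Kif23 at -5.42, Nuf2 at -6.14, Top2a at -3.77 and Mcm5 at -2.68.

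Matrix, surface and growth factor genes were also below 0, with -5.97 for Fbln1, -6.71 for Vstm2a, -4.21 for Gdf11, -4.54 for Mdga1 and -1.72 for Postn. The others were Ung at 2.85, Atf6 at 1.42, Sf3b5 at 0.91, Gtf2f2 at 0.55, Gse1 at -0.81 and Kdm1a at -0.57. LSD1 day 0 replicate 1, which stood apart, enters each of these values, and each of the 38 kept its direction and its call without it. Other libraries decided some calls. Plin1 lost its call without control day 0 replicate 3 (1.37). Gtf2f2 and Sf3b5 lost theirs without any 1 of several libraries, such as LSD1 day 7 replicate 1 (0.54 and 0.88).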

How the results depend on the processing

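The peak rule set the number of members: 2549 with a distance of 2500 bases and 969 with a score of at least 100. The percent with an Nrf1 peak at day 0 was 6.33 at 250 bases, 3.33 at 2500 bases, 6.71 with a score of at least 100, 3.83 with starts of predicted transcripts and 3.79 when 0.5 of the Nrf1 peak had to be covered. At day 7 the first 4 of these gave 6.15, 2.94, 6.6 and 3.35. In the same order the median score was 164, 104.9, 219.1 and 116.1, and the median width 697, 583, 815 and 612 bases; with peaks of another list within 1 kb removed they were 144.5 and 659.5.

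At 2500 bases the balance turned, with 39% of genes higher and 31.4% lower at day 7 (34.9% and 36.1% at 1 kb) and an interaction above 0 for 31.2% and below for 25.5%. At this distance 1887 genes were tested, and 736 were higher against control at day 7. In LSD1 cells 824 (43.7%) rose, against 38.8% at 1 kb, and 588 genes had an interaction above 0. In control cells 608 (32.2%) rose and 403 (21.4%) fell, against 30.2% and 21.5% at 1 kb. At day 0, 245 (13%) were higher and 285 (15.1%) lower, against 13.3% and 14.8% at 1 kb. The day 0 shares thus changed little, while the counts rose with the number of genes tested. With a score of at least 100, 838 genes were tested. Of these, 286 (34.1%) were lower at day 7, 294 (35.1%) fell in LSD1 cells and 243 (29%) had an interaction below 0. Without a score limit these shares were 36.1%, 36.3% and 30.2% of 1226 genes. These counts thus fell mostly with the number of genes tested. Without genes at shared peaks 207 of 943 genes (22%) had an interaction above 0, against 26.6% of the 1226. Leaving out 1 library at a time gave 95 to 255 genes higher and 114 to 367 lower at day 0. Both were lowest without control day 0 replicate 3 and highest without LSD1 day 0 replicate 1. In these 2 settings 7.82% and 22.6% of all genes tested were higher, and 8.17% and 26% lower. No other count moved by over 1.5 times when 1 library was left out. DESeq2, no filter and summed transcripts moved none by that much.

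With a replicate block 411 genes were higher and 433 lower at day 7, and no count moved by over 1.5 times. Same-numbered libraries correlated at -0.25 to 0.11 (18 pairs, 1 over 0.1) and 2 of 12 libraries correlated best with their own number, so the numbers do not pair them. For named genes 7692 of 8060 refits kept direction and side of the threshold; 252 lost the call, 115 gained it and 1 turned: the interaction of Ccne1, -0.11, ranged from -0.34 to 0.51 and was above 0 without LSD1 day 0 replicate 1. The predicted starts, wide peaks, tied scores and genes at shared peaks were chosen as alternatives after seeing the data. ChIP-seq depth, not given in the sources used here, limits statements on missing peaks.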
